A study of Saccharomyces cerevisiae with 5 samples.

Results

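*CUP2*, also named *ACE1*, and 5 genes of copper buffering in budding yeast were examined: the metallothionein genes *CUP1-1*, *CUP1-2* and *CRS5*, the superoxide dismutase gene *SOD1*, and *CCS1*, which encodes the copper chaperone of Sod1. They were taken by locus name, with earlier results of these data known, and are 6 of the 6697 annotated coding sequences (CDS) whose mRNA was measured. The study's question was whether induced transcription can prompt changes in gene copy number, and *CUP1* was its copper-inducible case. Wild-type haploid BY4741 cells, a laboratory strain of mating type a with deletions in *HIS3*, *LEU2*, *MET15* and *URA3*, were grown to mid-log phase in the rich medium YPD without added copper or with 1 mM CuSO4 for 4 hours, and poly(A)+ RNA was sequenced from 1 library of each. A γH2A ChIP library of cells in YPD and its input DNA gave a list of peaks, and the γH2A library of copper-treated cells was not analysed here.

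With 1 library per condition there is no replicate check on any value below, and each interval is a 95% interval that covers counting error only. The reads counted on CDS sum to 5572698 in YPD and 5749810 in CuSO4. A read where CDS overlap can be counted more than once in these sums. *LEU2*, *URA3* and *MET15* had 0 reads in both, which allows up to 3 reads, while *HIS3*, of which this strain lacks only a part, had 291 and 309. The a-cell gene *STE2*, for the α-factor receptor, had 4433 and 5320 reads, against 11 and 7 for the α-cell gene *STE3*. The other a-cell genes read, *MFA1*, *MFA2* and *BAR1*, had between 312 and 2593 reads, and the α-cell genes *MF(ALPHA)1* and *MF(ALPHA)2* had 0 and 46 in YPD and 0 and 30 in CuSO4. The actin gene *ACT1* differed by 0.03 on the log2 scale (interval -0.01 to 0.06). RNA from a whole culture does not separate more cells expressing a gene from more RNA per cell.

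Copper is needed by a few enzymes and is toxic in excess. In budding yeast Cup2 (Ace1) binds copper through cysteine residues, folds into a DNA-binding form and activates transcription of metallothionein genes, whose small cysteine-rich products sequester copper. Cup2 is also known to act on *SOD1*, the cytosolic copper-zinc superoxide dismutase, which receives its copper from Ccs1. A second copper sensor, Mac1, works in the other direction and activates uptake genes when copper is scarce.

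The upstream sequences show what the targets share and where they differ. Cup2 is known to contact a GCTG core that follows a run of T, searched here as TNNNGCTG and in a stricter form, TTTT followed by any 2 bases and then GCTG, on both strands of the 300 bases before each start codon. The lines below give, for the genes whose mRNA was higher in copper, the bases from 300 to 101 before the start codon, on the strand of the gene. Capitals mark each match to TNNNGCTG or to its reverse complement. They come from the RefSeq S288C genome, build R64: *CUP1-1* from the minus strand of chrVIII:212821-213020, *CRS5* from the plus strand of chrXV:388913-389112 and *SOD1* from the minus strand of chrX:623115-623314.
CUP1-1: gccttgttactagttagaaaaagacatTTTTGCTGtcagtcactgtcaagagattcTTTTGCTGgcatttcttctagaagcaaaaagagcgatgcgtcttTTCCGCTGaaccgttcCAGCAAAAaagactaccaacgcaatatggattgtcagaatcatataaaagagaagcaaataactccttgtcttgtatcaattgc
CRS5: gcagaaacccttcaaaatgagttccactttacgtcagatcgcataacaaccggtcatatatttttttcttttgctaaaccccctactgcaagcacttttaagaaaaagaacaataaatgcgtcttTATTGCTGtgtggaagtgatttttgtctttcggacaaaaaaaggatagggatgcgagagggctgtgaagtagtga
SOD1: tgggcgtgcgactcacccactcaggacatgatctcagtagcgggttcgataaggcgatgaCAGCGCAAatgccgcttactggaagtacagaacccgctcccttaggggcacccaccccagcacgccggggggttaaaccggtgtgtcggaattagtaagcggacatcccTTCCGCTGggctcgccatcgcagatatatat
The *CUP1-2* window is the same, with 300 of 300 bases identical. All 6 genes hold TNNNGCTG, as do 2338 of 6696 windows of this length (34.9%). *CUP1* has 4 matches, *SOD1* has 3, 1 of them nearer the start than the stretch shown, and *CRS5*, *CUP2* and *CCS1* have 1 each. The stricter form occurs in 156 of 6696 windows (2.33%). *CUP1-1* and *CUP1-2* each have 2 matches to it, TTTTCCGCTG from 202 to 193 bp upstream and 1 on the opposite strand, with T at both free positions, from 184 to 175 bp upstream. Of all 6696 windows, 4 (0.0597%) hold as many, both identical *CUP1* windows among them. The motif was chosen with earlier results of these data known, so this share is description only. *CRS5*, *SOD1* and *CUP2* have none. *CCS1* has 1, on the opposite strand in the last 10 bases before its start codon, shown in capitals as CAGCACAAAA within chrXIII:348261-348290 (minus strand).
CCS1: aaggcagaaacccattcgatCAGCACAAAA
A match is a run of letters and was not tested as a binding site, and a window without one says nothing of the factor.

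The metallothionein coding sequences are shown because their repeats, lengths and cysteine codons bear on how the reads can be read. Capitals mark the cysteine codons TGT and TGC.
CUP1-1: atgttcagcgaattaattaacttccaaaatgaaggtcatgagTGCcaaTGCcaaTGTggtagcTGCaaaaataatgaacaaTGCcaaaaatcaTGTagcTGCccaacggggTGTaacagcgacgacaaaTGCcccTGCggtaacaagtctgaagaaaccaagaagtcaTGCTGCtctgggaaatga
CRS5: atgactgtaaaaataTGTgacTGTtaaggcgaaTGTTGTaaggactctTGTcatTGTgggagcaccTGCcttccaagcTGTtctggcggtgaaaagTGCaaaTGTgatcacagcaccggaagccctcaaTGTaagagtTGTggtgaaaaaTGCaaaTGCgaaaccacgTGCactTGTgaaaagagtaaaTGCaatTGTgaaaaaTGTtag
*CUP1-1* (YHR053C) lies on the minus strand of chrVIII:212535-212720 and *CUP1-2* (YHR055C) on the minus strand of chrVIII:214533-214718. Their CDS of 186 bp are identical at 186 of 186 bases and hold 12 cysteine codons among 61 (19.7%). *CRS5* (YOR031W, plus strand of chrXV:389213-389422, 210 bp) holds 19. In the reference genome its frame carries a TAA stop as codon 9, and RefSeq annotates it as a pseudogene. The deposited table counts reads over the full 210 bp, on both sides of that codon. None of the other 5 genes has a stop in frame before its end, and all 6 CDS have the same coordinates in the table and in RefSeq.

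*CUP2* mRNA was no higher in copper. The gene (YGL166W, plus strand of chrVII:191129-191806, 678 bp) had 128 reads in YPD and 105 in CuSO4. Its level, as log2 of scaled reads per kb of CDS, was 7.61 and 7.27, which is percentile 44.8 and 35.3 among all CDS. The change was -0.34 (interval -0.72 to 0.05), so a difference was not detectable at this depth. Of 1700 single-copy CDS with like read numbers (geometric mean of both libraries within 2-fold), 96.5% had a change at least as high. YGL165C, a CDS on the opposite strand, covers 60.3% of *CUP2* and gave 159 and 130 reads, a change of -0.34 (interval -0.69 to 0.00). Whether the counting used strand is not given in the sources used here. In YPD, YCR013C, opposite *PGK1*, had a log2 level of 15.17 against 15.12 for *PGK1*. YAL037C-B, opposite *CDC19*, had 15.21 against 15.16. Both pairs were named after their values were seen. A CDS there took in reads of the opposite strand, so reads of *CUP2* and YGL165C cannot be told apart. The neighbour *PMR1*, a Golgi calcium pump, changed by -0.03, and *YRB30*, of nuclear transport, by 0.26 (interval 0.03 to 0.49). *TRM11*, of tRNA methylation, and *MIH1*, the phosphatase that acts on Cdc28, stood next above and below *CUP2* in the order of log2 change among 5697 CDS with 50 or more reads, at -0.33 and -0.34. *HAA1*, which with *MAC1* encodes the proteins most like Cup2 in their DNA-binding domain, changed by -0.08 (interval -0.25 to 0.09).

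*CUP1* differed most of the 6. *CUP1-1* had 496 reads in YPD and 4042 in CuSO4, and its log2 level went from 11.43 to 14.41. *CUP1-2* had 526 and 3976, with log2 levels of 11.52 and 14.38. In each library the values of both copies, which share 1 pool of reads, stood at about the same level. Each was far higher in copper, at percentile 94.7 and 95.1 among all CDS in YPD and 99.3 for each in CuSO4. The log2 change was 2.98 (interval 2.84 to 3.11, 7.87-fold) for *CUP1-1* and 2.87 (interval 2.74 to 3.0, 7.30-fold) for *CUP1-2*, ranks 4 and 7 of the 6078 CDS tested, which are those that reached 20 reads in either library. Both passed 2-fold, and no other of the 6 did, where 0.526% of all CDS passed 2-fold higher and 0.658% passed 2-fold lower.

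The 2 copies cannot be measured separately. The reference holds 2 repeats at a period of 1998 bp, and 1988 bp around *CUP1-1* recur without a mismatch 1 period away. A read from any copy matches both, and the strain, as the study describes, carries more copies than the reference, so a value per annotated copy is a share of one pool. *CUP1-1* took 48.5% of the pair's reads in YPD (Clopper-Pearson interval 45.4% to 51.6%) and 50.4% in CuSO4 (49.3% to 51.5%). The changes of the copies differed by 0.11 (interval -0.08 to 0.30). Summed, *CUP1* went from 1022 to 8018 reads, a log2 change of 2.92 (interval 2.83 to 3.02), or 7.58-fold (7.10 to 8.10). This is 0.0183% of the counts summed over all CDS in YPD (0.0172% to 0.0195%) and 0.139% in CuSO4 (0.136% to 0.143%). More RNA per gene copy and more gene copies cannot be told apart in these RNA libraries.

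The *CUP1* repeats hold other CDS that share their reads or their position. YHR052W-A and YHR054W-A, small CDS on the opposite strand, each overlap 170 bp of a *CUP1* copy, 91.4% of its length. YHR052W-A went from 637 to 5145 reads (log2 change 2.96) and YHR054W-A from 667 to 5060 (2.87), next to *CUP1-1* and *CUP1-2* in the order of change. These counts cannot be told from those of *CUP1*. YHR054C, which lies between the copies and does not overlap them, went from 195 to 263 reads, a change of 0.38 (interval 0.11 to 0.66). All of YHR054C is repeated sequence, and so is 40.3% of *RSC30*, of the RSC chromatin remodeller, which runs from the second repeat into unique sequence, so reads on the repeated stretch can belong to either CDS. *RSC30* changed by -0.12 (interval -0.30 to 0.06). *CIC1*, of ribosome assembly, which lies outside the repeats, changed by -0.14 (interval -0.27 to -0.01).

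mRNA of *CRS5*, the second metallothionein gene, which RefSeq annotates as a pseudogene in the reference, was low. *CRS5* had 31 reads in YPD and 57 in CuSO4, and its log2 level went from 7.26 (interval 6.70 to 7.76) to 8.08 (7.68 to 8.46). This is below the median of all CDS in YPD (7.82) and above it in CuSO4 (7.84), percentile 35.0 and 56.1. The crossing of the median holds per kb only: ranked by reads without division by length, *CRS5* stood at percentile 12.6 and 16.8. The change was 0.83 (interval 0.17 to 1.51), or 1.78-fold (1.13 to 2.85). With *CUP1-1* and *CUP1-2* it was 1 of 3 of the 6 genes past 1.5-fold, which 2.40% of all CDS passed in that direction. So few reads limit the precision: of 681 single-copy CDS with like read numbers, 14 (2.06%) had a change at least as high, and 95% of the 681 lay between -0.67 and 0.79. Its neighbours stayed near 0, at -0.04 for *DFG16*, of alkaline pH sensing (interval -0.31 to 0.22) and 0.16 for *HMS1*, a transcription factor (interval -0.37 to 0.70). The small heat shock protein gene *HSP26* (0.83) and YLR154C-G (0.82) stood next to it in the order of change.

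*SOD1* was abundant in both libraries and slightly higher in copper. The gene (YJR104C, minus strand of chrX:622550-623014, 465 bp) had 5627 reads in YPD and 7363 in CuSO4. Its log2 level was 13.61 and 13.95, percentile 98.7 and 98.9 among all CDS. The change of 0.34 (interval 0.29 to 0.39), or 1.26-fold (1.22 to 1.31), is far from 2-fold but well measured at this depth. Of 215 single-copy CDS with like read numbers, 95% changed by between -0.18 and 0.20, and 1 (0.465%) by as much as *SOD1*: *TDH1*, for an isozyme of glyceraldehyde-3-phosphate dehydrogenase, at 0.41, named after its value was seen. *SOD1* exceeded *ACT1* in its change by 0.31 (interval 0.25 to 0.37). The neighbours *URA8*, for CTP synthase, and *ADO1*, for adenosine kinase, changed by 0.08 and 0.12. In the order of change, MRA1 (YPR010C-A) and YML116W-A stood next to *SOD1*, both at 0.34.

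*CCS1* stood at the same level in both libraries. The chaperone gene (YMR038C, minus strand of chrXIII:347511-348260, 750 bp) had 1129 reads in YPD and 1169 in CuSO4, with a log2 level of 10.61 in each, percentile 91.5 and 91.2. The change was 0.00 (interval -0.12 to 0.12). The change of *SOD1* exceeded that of *CCS1* by 0.34 (interval 0.21 to 0.47). The change of *CCS1* stood next to those of YDR524C-B and *RPS18A*, for a ribosomal protein, which were also 0.00. Its neighbours were *MSN2*, for a stress transcription factor, at -0.01 and *SUB1*, for a transcription coactivator, at 0.18 (interval 0.02 to 0.35).

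**Figure D1:**
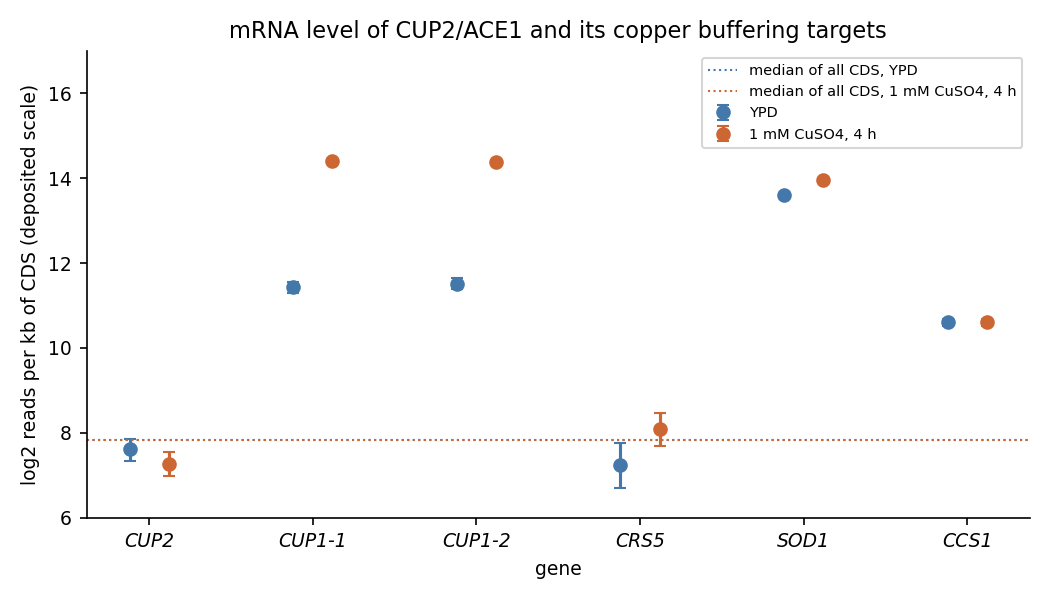
Level of the 6 genes (x axis) as log2 scaled reads per kb of CDS (y axis) in YPD and after 4 h in 1 mM CuSO4, 1 library each, with 95% Poisson intervals of the reads as bars and the median of all CDS as dotted lines. *CUP1-1* and *CUP1-2* lie below *SOD1* in YPD (11.43 and 11.52 against 13.61) and above it in CuSO4 (14.41 and 14.38 against 13.95), while *CCS1* is at 10.61 in both. The points of the *CUP1* copies are shares of 1 pool of reads.

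The order of the levels, compared per kb, was not the same in the 2 libraries. *CUP1* is ordered here by the sum over its copies, since the value of each copy is a share of 1 pool. In YPD the order ran *SOD1*, *CUP1*, *CCS1*, *CUP2*, *CRS5*. The summed log2 level of *CUP1* was 12.47, lower than that of *SOD1* with a log2 difference (*CUP1* minus *SOD1*) of -1.14 (interval -1.24 to -1.04). *CUP1* exceeded *CCS1* 3.65-fold (3.35 to 3.98), and *CCS1* exceeded *CUP2* 7.97-fold (6.64 to 9.65). *CUP2* and *CRS5*, at a log2 difference of 0.35 (interval -0.22 to 0.97), did not differ beyond counting error. In CuSO4 the order ran *CUP1*, *SOD1*, *CCS1*, *CRS5*, *CUP2*. *CUP1*, at a summed log2 level of 15.40, then exceeded *SOD1* 2.72-fold (interval 2.64 to 2.81), and *CRS5* exceeded *CUP2* by 0.81 on the log2 scale (interval 0.32 to 1.29). Taken singly, each annotated *CUP1* copy was also below *SOD1* in YPD and above it in CuSO4. These orders depend on division by length. In reads, each *CUP1* copy was below *SOD1* in CuSO4 (4042 and 3976 against 7363), though their sum (8018) was above it. Summed *CUP1* was below *CCS1* in YPD (1022 against 1129), and *CRS5* was below *CUP2* in CuSO4 (57 against 105). The values of the copies differed from each other by 0.08 in YPD (interval -0.10 to 0.26) and by 0.02 in CuSO4 (interval -0.04 to 0.09). As shares of 1 pool, they say nothing of how separate copies compare.

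**Figure D2:**
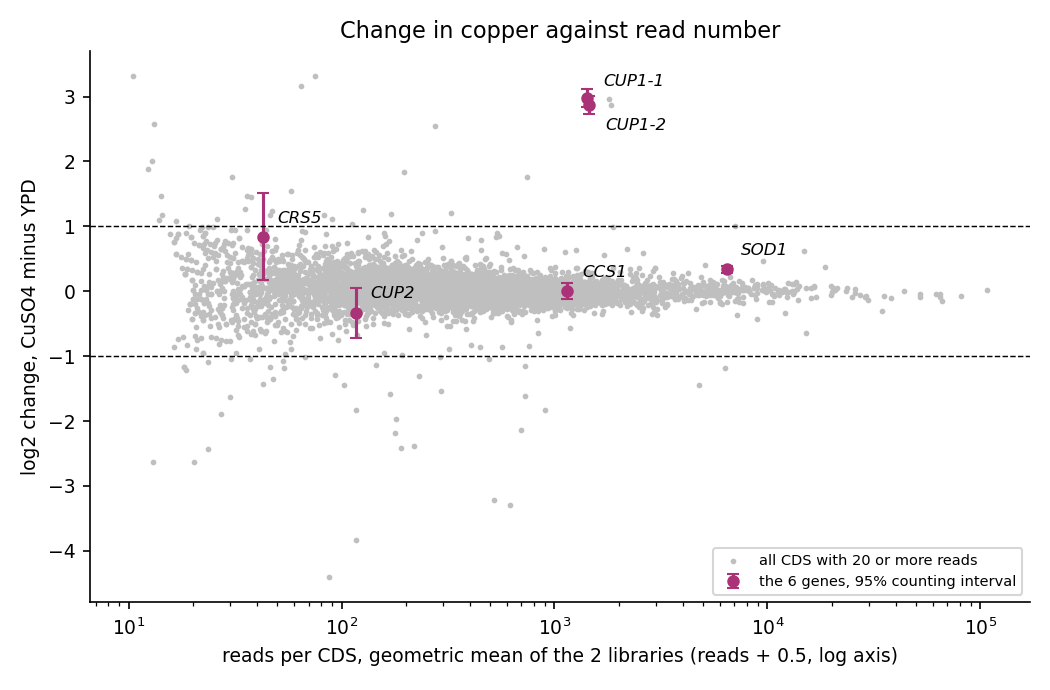
Log2 change (y axis, CuSO4 minus YPD) against the geometric mean of the reads plus 0.5 in both libraries (x axis, log scale) for 6078 CDS with 20 or more reads (grey) and the 6 genes (coloured, with 95% counting intervals), with dashed lines at 2-fold. *CUP1-1* (2.98) and *CUP1-2* (2.87) stand far above the single-copy CDS of like read number. Grey points of the antisense CDS that overlap them, YHR052W-A (2.96) and YHR054W-A (2.87), lie beside them. *SOD1* (0.34) stands above the narrow spread at its depth and *CRS5* (0.83) lies near the upper edge of a wide spread. *CCS1* (0.00) lies within the spread and *CUP2* (-0.34) near its lower part.

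Read against all CDS, the 6 genes were mixed. Their median log2 change was 0.58, against 0.01 for the 6078 CDS tested. With the *CUP1* copies, which share 1 pool of reads, counted once, the median is 0.34. The counting interval lay above 0 for 4 genes (*CUP1-1*, *CUP1-2*, *CRS5* and *SOD1*), as it did for 11.6% of all CDS, and below 0 for none, against 10.1%. Differences of change were computed for 8 pairs, without a test, since there are no replicates. *CUP1* exceeded *SOD1* by 2.58 (interval 2.48 to 2.69) and *CRS5* by 2.09 (1.41 to 2.76). *CRS5* and *SOD1* differed by 0.49 (interval -0.17 to 1.17), which leaves either order possible. *CRS5* exceeded its activator gene *CUP2* by 1.16 (0.39 to 1.95), and *CCS1* and *CUP2* differed by 0.34 (-0.07 to 0.74).

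In reads, *CUP1* supplied most of the gain. The 6 genes together had 7937 reads in YPD and 16712 in CuSO4. *SOD1* held 70.9% of these in YPD and *CUP1* 12.9%, and in CuSO4 they held 44.1% and 48.0%. *CUP1* gained 6996 reads, *SOD1* 1736, *CCS1* 40 and *CRS5* 26, and *CUP2* had 23 fewer. These figures are reads as recovered, before scaling and not per length.

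γH2A, histone H2A phosphorylated where replication forks stall, was enriched upstream of *CUP1* in YPD, and no peak lay within 1000 bp upstream of the other 4 genes. Of the 240 peaks listed, 1 lies upstream of each *CUP1* copy within 1000 bp of its start: chrVIII:212961-214289, with its summit 596 bp from the *CUP1-1* start, and chrVIII:214965-216291, with its summit 593 bp from the *CUP1-2* start. Their enrichment was 2.16-fold and 2.08-fold, ranks 50 and 28 from the lowest of 240, while their pileups (the height of overlapping fragments, not corrected for copy number) of 964 and 926 were ranks 7 and 8 from the highest, against a median of 227. An upstream peak is found for 445 of 6697 CDS (6.64%). The near edge of the nearest peak was 5551 bp from the start of *CUP2*, 20586 bp from that of *CRS5*, 43003 bp from that of *SOD1* and 83786 bp from that of *CCS1*. Reads of the repeated sequence cannot be assigned to 1 copy here either.

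**Figure D3:**
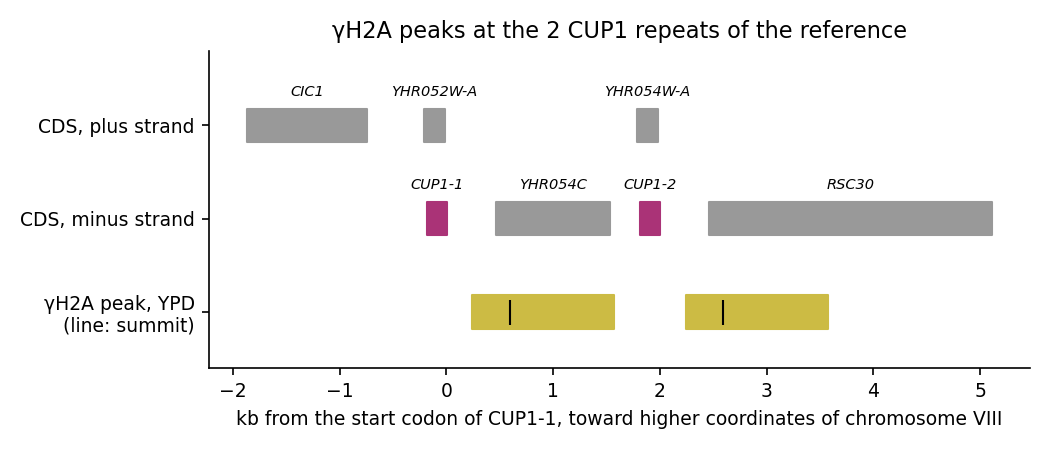
Map of the 2 annotated *CUP1* repeats, with the distance in kb from the *CUP1-1* start codon on the x axis, CDS by strand (*CUP1* coloured, others grey) and the γH2A peaks of cells in YPD as bars with a line at each summit. Each peak starts upstream of a *CUP1* copy, with its summit 596 bp and 593 bp from the start codons, and neither reaches the *CUP1* CDS or the antisense CDS that overlaps it.

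The other copper genes set the 6 in context. Of 7 genes of the Mac1 system, none was 2-fold higher (0.526% of all CDS) and 5 were 2-fold lower (0.658% of all CDS): the high-affinity copper transporter *CTR1* (1554 reads in YPD and 173 in CuSO4, log2 change -3.22), the cell-surface metal reductases *FRE1* (1888 and 200, -3.29) and *FRE7* (217 and 63, -1.83), the β-lyase gene *IRC7* (489 and 175, -1.53) and *REE1* (402 and 207, -1.01). Their direction was opposite to that of *CUP1*. The second transporter *CTR3* had few reads, 48 in YPD and 31 in CuSO4, and was at -0.68 (interval -1.38 to 0.00). *MAC1* itself was at -0.21 (interval -0.55 to 0.13), so neither sensor gene, *CUP2* or *MAC1*, changed beyond counting error.

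Of 12 genes listed for copper delivery inside the cell, which include the copper-receiving ferroxidase *FET3*, none passed 2-fold in either direction. Of all CDS, 0.526% passed 2-fold higher and 0.658% lower, so 0 of 12 is near these shares. The median of the 12 was 0.18 and they ran from -0.57 for *COX19* to 0.58 for *COX17*. Both of these serve assembly of cytochrome oxidase in mitochondria. The interval lay above 0 for 4 (*COX17*, *SCO2*, the mitochondrial carrier *PIC2* and the multicopper ferroxidase *FET3*) and below 0 for 1 (*COX19*), beside 11.6% and 10.1% of all CDS. *ATX1*, the chaperone that hands copper to the secretory pathway as Ccs1 does to Sod1, was at 0.32 (interval -0.04 to 0.68). Of 7 enzymes that act on superoxide or peroxide, none passed 2-fold either (0.526% of all CDS did so higher and 0.658% lower). Their median was -0.02. *SOD2*, the mitochondrial manganese superoxide dismutase, was at 0.05 (interval -0.06 to 0.17), against 0.34 for *SOD1*. The highest of these was the cytosolic catalase *CTT1*, at 0.78 (interval 0.46 to 1.11), and the lowest the peroxiredoxin *AHP1*, at -0.13.

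**Figure D4:**
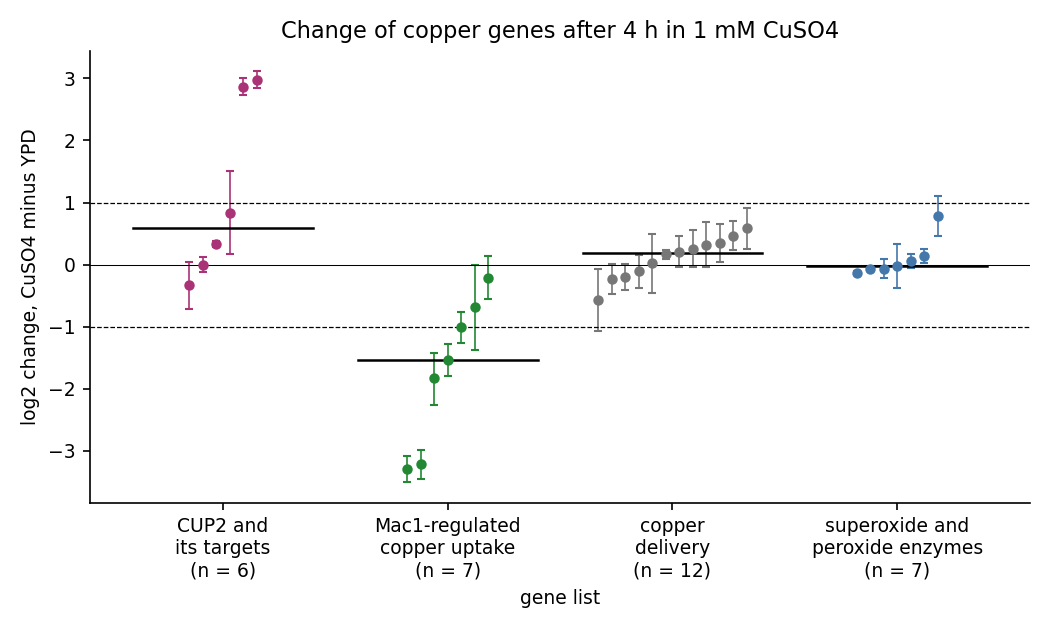
Log2 change (y axis, CuSO4 minus YPD) of the 6 genes and of 3 lists of copper and antioxidant genes (x axis), each point 1 gene with its 95% counting interval, a thick line at each list's median and dashed lines at 2-fold. The medians are 0.58 for the 6 genes, -1.53 for the Mac1 list, 0.18 for copper delivery and -0.02 for superoxide and peroxide enzymes. The Mac1 list of 7 genes includes *MAC1*, *IRC7* and *REE1* beside the uptake genes, and its median is the value of *IRC7*. The *CUP1* copies are the only points above 1.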

How the data were processed

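Poly(A)+ RNA of BY4741 cells was sequenced from 1 library in YPD and 1 after 4 hours in 1 mM CuSO4, and γH2A ChIP and input DNA from 3 libraries. Samples were not pooled or averaged. For RNA, the authors mapped reads with HISAT2 (version 2.0.5 in the submitters' processing notes) to build R64, counted them on CDS and deposited log2 values of reads scaled to the larger library, per kb of CDS. A CDS without reads is set to 0.9 reads, as the values show. Reads were recovered by undoing length and library scale (1.04 for YPD and 1.00 for CuSO4). In the libraries 99.8% and 99.8% of values above that floor came out within 0.01 of a whole number. Depth, as the sum of counts over all CDS, overlapping ones included, was 5572698 and 5749810 reads. The authors' peaks (Bowtie2 2.2.5, MACS2, artifactual peaks removed by hand, at least 2-fold) were deposited with a pileup signal, a fold enrichment ratio, and −log10 p-values, which were not used. The peak list, labelled also for the other ChIP and input libraries, was taken as that of YPD from the study's description.

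The log2 change is the difference of the deposited values. Its 95% interval is an exact Clopper-Pearson interval on the ratio of reads. Levels have exact Poisson intervals, and differences between 2 changes have conditional exact intervals of the odds ratio. These cover counting error only, since PCR copies are not independent molecules, and no p-value is given. A CDS was tested where either library gave it 20 reads or more, with thresholds of 2-fold and 1.5-fold. A CDS was called single-copy where under 50% of its length recurred at 95% identity or more in hits of at least 50 bp (BLAST+ 2.17.0). Peaks were compared with the 1000 bp upstream of each CDS (at least 1 bp of overlap), and motifs with 300-base windows. Python 3.11.15, NumPy 2.4.6, pandas 2.3.3, SciPy 1.17.1 and matplotlib 3.10.9 were used. The calculations were tested on simulated data.

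The members, gene lists and motif were chosen with earlier results of these data known. Genes named are the 6, CDS overlapping or within 1000 bp of them, listed genes past 2-fold with the range of the rest, the CDS next above and below each in order of change, *HAA1*, *MAC1* and *ACT1*. The other genes of the lists that are named, strain and mating-type genes, and those said to be named after their values were seen fall outside or beside it. Symbols and sequences come from RefSeq for R64, which has an entry for 6014 of 6697 CDS. Of these, 99.9% have the same coordinates. Alternatives tried were other scalings, added reads, fold and read minimums, no division by length, other peak windows and enrichment, and a looser and a stricter motif.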

Additional observations from a re-analysis of the deposited data

How the results depend on the processing

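No paired analysis was possible because there was 1 library of each kind, and no library could be left out. Of 72 alternatives, 54 stayed within the limits set and none turned a direction, apart from *CCS1*, at 0.00 and at -0.01 under centring; all 28 for the log2 change of a gene or of *CUP1* summed are among the 54. Without division by length, the percentiles in YPD became 29.0 for *CUP2*, 69.2 for *CUP1-1*, 70.8 for *CUP1-2*, 12.6 for *CRS5*, 97.5 for *SOD1* and 87.4 for *CCS1*, and in CuSO4 24.2, 96.5, 96.4, 16.8, 98.3 and 87.4 in the same order. Short CDS such as *CUP1* and *CRS5* rank higher per kb. Without the 10 CDS with most reads in the total, the *CUP1* share was 0.0207% in YPD and 0.157% in CuSO4. With peaks of at least 3-fold enrichment, 0 of the 6 genes had an upstream peak, against 2. The median enrichment of the 240 peaks was 2.51-fold, so this cutoff drops most peaks of the list. The share of all CDS with an upstream peak at this cutoff is not given, so the 0 cannot be read as particular to the 6 genes. TNNNGCTG gave 6 genes with a match, against 3. At 1.5-fold, 1 superoxide or peroxide enzyme (*CTT1*) was higher, against 0 at 2-fold, beside 2.40% and 0.526% of all CDS. In alternatives chosen after seeing the data, the share of CDS at least 2-fold higher was 0.172% without near-identical copies, and centring left 4 of the 6 intervals above 0. Few reads limit *CRS5* and *CUP2*, and *CUP1* only as a sum over copies can be read.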

Other observations

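The stricter Cup2 motif, TTTT followed by any 2 bases and then GCTG, was also counted in the 300 bases upstream of all CDS. Outside the 6 genes, 142 CDS tested have 1 match, and 6 of them (4.23%) were at least 1.5-fold higher, against 137 of 5928 without a match (2.31%). The 6, named after their values were seen, are *FLO9*, *PTH1*, *FMP33*, *NFG1*, *COS1* and YOR343C, of which *FLO9* (60 reads in YPD and 134 in CuSO4) and YOR343C (8 and 23) passed 2-fold. *FLO9* and *COS1* have near-identical copies elsewhere in the genome. The median change was 0.01 in both sets. The only other CDS with 2 matches, *TRM82*, of tRNA methylation, and *SUI2*, the alpha subunit of the initiation factor eIF2, were at -0.10 and -0.16. These counts come from 1 library per condition and were not tested.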
